A study of Mus musculus with 4 samples.

Results

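Blood vessel growth was followed through 10 genes, of 21861 features in the deposited matrices, from P43 to P70 in mouse brain tumors: the VEGF receptors Kdr and Flt1, the angiopoietin receptor Tek and its ligand Angpt2, apelin (Apln) and its receptor Aplnr, the tip cell genes Esm1 and Dll4, and the endothelial adhesion genes Pecam1 and Cdh5. The genes were chosen by name, with earlier results of these data known, and all 10 were found. The data are droplet-based scRNA seq of brain tumors from 4 mice of the genotype hGFAP-cre::TP53Fl/Fl::lsl-MYCN, of which mice 4 and 5 were 43 days old (P43) and mice 6 and 7 were 70 days old (P70). All 4 animals carried the same alleles: Cre under the hGFAP promoter, which is active in radial glia and their progeny, deletes Trp53 there and switches on human MYCN with a firefly luciferase reporter (FLUC). Endothelial and mural cells are not known to arise from radial glia, so in these tumors they count as host tissue around the tumor cells. The paper gives the source of the cells as olfactory bulb or tumor tissue, and describes P43 as early tumor onset. The tissue was minced and digested. Red blood cells were lysed, suspensions were frozen and, after thawing, live cells were sorted, so vessel cells came without enrichment. How many vessel cells came from olfactory bulb tissue was not tested. P43 served as the reference, and age, tumor stage, the part of olfactory bulb tissue and library preparation cannot be told apart. With 2 mice per age, p-values bear on these 4 mice alone. Those of edgeR draw on a spread pooled over genes, so they do not measure a gene's own spread between the mice.

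New vessels grow as sprouts from existing ones. VEGF from the surrounding tissue binds KDR on endothelial cells (EC), and the EC with the strongest signal becomes the tip cell, makes DLL4 and holds its neighbours, the stalk cells, back through Notch. FLT1 binds VEGF tightly but signals weakly, and its soluble form acts as a decoy. TEK, also called TIE2, keeps vessels quiet when mural cells supply angiopoietin 1, whereas angiopoietin 2, which EC make themselves, can block it. Apelin is released by tip cells and acts on APLNR in neighbouring EC and veins. Esm1 encodes a secreted proteoglycan that marks tip cells, and PECAM1 and VE-cadherin (Cdh5) hold EC together.

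By Ensembl identifier, the 10 genes lie on chromosomes 2, 4, 5, 8, 11, 13 and X of GRCm38, the sequence the authors' mm10 reference is built on. Kdr (chr5:75932827-75978458) and Flt1 (chr5:147561604-147726011) share a chromosome, as do Aplnr (chr2:85136225-85139923) with Dll4 (chr2:119325784-119335962) and Angpt2 (chr8:18690263-18741562) with Cdh5 (chr8:104101625-104144511). The others are Tek (chr4:94739289-94874976), Pecam1 (chr11:106654217-106750628), Esm1 (chr13:113209659-113218098) and Apln (chrX:48025146-48034853). In GENCODE vM21 none of the 10 overlaps another gene on its own strand. Angpt2 lies across from Mcph1, Esm1 from Gzmk, Dll4 from Gm14207 and Cdh5 from Gm29682 on the other strand. Flt1 has 6 annotated transcripts, and gene counts do not tell its soluble from its membrane-bound form.

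The promoters of 4 of the genes are shown because they are the pairs with opposite changes in EC, Apln and Esm1 higher at P70 and Flt1 and Tek lower. Each line gives the 250 bases before the RefSeq start on GRCm38.p6, 5′ to 3′ on the strand of the gene, with GGAA, the core that ETS factors read, in capitals on either strand (GGAA or TTCC).
Apln promoter: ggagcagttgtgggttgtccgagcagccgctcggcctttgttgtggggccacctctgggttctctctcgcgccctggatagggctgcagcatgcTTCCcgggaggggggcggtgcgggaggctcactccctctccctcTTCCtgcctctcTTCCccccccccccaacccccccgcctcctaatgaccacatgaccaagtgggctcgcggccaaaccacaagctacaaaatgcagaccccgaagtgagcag
Esm1 promoter: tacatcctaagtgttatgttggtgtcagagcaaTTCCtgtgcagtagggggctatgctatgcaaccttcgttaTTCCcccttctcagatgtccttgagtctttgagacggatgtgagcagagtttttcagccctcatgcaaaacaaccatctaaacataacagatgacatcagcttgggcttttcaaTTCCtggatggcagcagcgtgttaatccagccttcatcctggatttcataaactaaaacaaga
Flt1 promoter: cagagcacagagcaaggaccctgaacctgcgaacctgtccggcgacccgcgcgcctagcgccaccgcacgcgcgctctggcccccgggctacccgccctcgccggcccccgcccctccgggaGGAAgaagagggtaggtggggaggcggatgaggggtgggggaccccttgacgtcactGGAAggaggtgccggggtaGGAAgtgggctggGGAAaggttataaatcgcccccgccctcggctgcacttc
Tek promoter: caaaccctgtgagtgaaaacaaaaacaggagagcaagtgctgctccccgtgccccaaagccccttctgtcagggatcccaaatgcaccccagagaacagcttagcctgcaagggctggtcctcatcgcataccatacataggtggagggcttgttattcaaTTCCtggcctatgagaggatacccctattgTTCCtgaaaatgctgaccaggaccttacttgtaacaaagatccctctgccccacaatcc
The windows are chrX:48034854-48035103 on the minus strand for Apln, chr13:113209409-113209658 on the plus strand for Esm1, chr5:147726012-147726261 on the minus strand for Flt1 and chr4:94739039-94739288 on the plus strand for Tek. RefSeq windows were also read for Kdr and Dll4, so 6 of the 10 genes matched, and Pecam1, Angpt2, Aplnr and Cdh5 are named only. GGAA was found in each of the 6 windows, 2 to 4 times, and in 93.4% of all 32851 windows of the same length. ACGTG, a core of the hypoxia response element, was found in none of the 6 and in 16.6% of all windows. TATAAA was found in the Flt1 window alone among the 6 and in 12.4% of all windows. GGGCGG, the GC box, was found in the windows of Kdr, Flt1, Apln and Dll4 and in 32.7% of all windows. GC content was 65.2% for Apln and 44.0% for Esm1, and 70.4% for Flt1 and 51.2% for Tek, so each pair spanned a GC-rich and a GC-poorer window.

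Cells were grouped into 18 clusters, and each was named from marker lists that hold none of the 10 genes. One cluster of 1244 cells carried the EC name, with 418, 498, 292 and 36 cells in mice 4, 5, 6 and 7, and one cluster of 783 cells carried the mural name, with 272, 261, 214 and 36 cells. Mural cells are pericytes and smooth muscle cells that wrap the vessel. The mice had been integrated, that is, aligned on shared expression patterns before clustering. Without this step both classes split. Most mural cells of the P43 and P70 mice fell into different clusters. Among EC, most cells of mouse 6 alone left the cluster of the P43 mice. Of the EC, 391, 477, 66 and 27 cells of mice 4, 5, 6 and 7 then lay in one EC cluster, and 24, 21, 224 and 8 in a second. The second was led by Scgb3a1, Tmem252 and Ctla2a, with Angpt2, Apln, Vwf and Igfbp3 among its leading 10 genes. The second held 5.74% and 4.22% of the EC at P43 and 76.7% and 22.2% at P70. Of the mural cells, 268, 259, 27 and 13 lay in a cluster of the mural name, and 3, 2, 179 and 23 in one that carried the fibroblast name, led by Col3a1 and Col1a1. The summed level of the 14 EC markers was 15878 to 27493 CPM (UMIs scaled to the same total for each class and mouse, the usual unit of expression) in EC and 497 to 1161 CPM in mural cells, and none of the 14 was at 0 in EC of any mouse. Tumor cells, from clusters whose summed human MYCN and FLUC reached 500 CPM, numbered 2284, 281, 530 and 2949. Mouse 7 thus rested on 36 EC with 74693 UMIs, against 955488, 1959762 and 1173194 UMIs in mice 4, 5 and 6. EC of mouse 7 held 268 CPM of FLUC, against 19.9 to 22.0 CPM in the other mice, and 1165 CPM in its own tumor cells. The 4 libraries shared 1 to 3 cell barcodes per pair. The library of mouse 4 is labelled female and had 217 CPM of 4 Y-linked genes outside the tumor clusters, and that of mouse 5 is labelled male and had 0.58 CPM. Both are P43 libraries, so ages and not sexes were compared here. Depth differed between libraries, with medians of 1419, 4200, 4587 and 10449 UMIs per kept cell.

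In EC, 4 of the 10 genes rose from P43 to P70, namely Angpt2, Apln, Aplnr and Esm1, and 2 fell, Flt1 and Tek, while Kdr, Pecam1, Dll4 and Cdh5 did not pass the test. All 10 passed the filter on low counts. Esm1, with no UMI at P43, passed it through the P70 mice alone, so a call could only be a rise. Calls are adjusted p-values under 0.05 from edgeR's quasi-likelihood test on UMIs summed per mouse, with Benjamini-Hochberg adjustment over 8783 genes. Of these, 9.84% were called, 6.28% as higher and 3.55% as lower at P70. The median log2 change of the 10 genes was 0.64, and that of all genes tested was -0.03. Because the 10 were chosen with earlier results of these data known, their count of calls is not independent evidence.

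**Figure D1:**
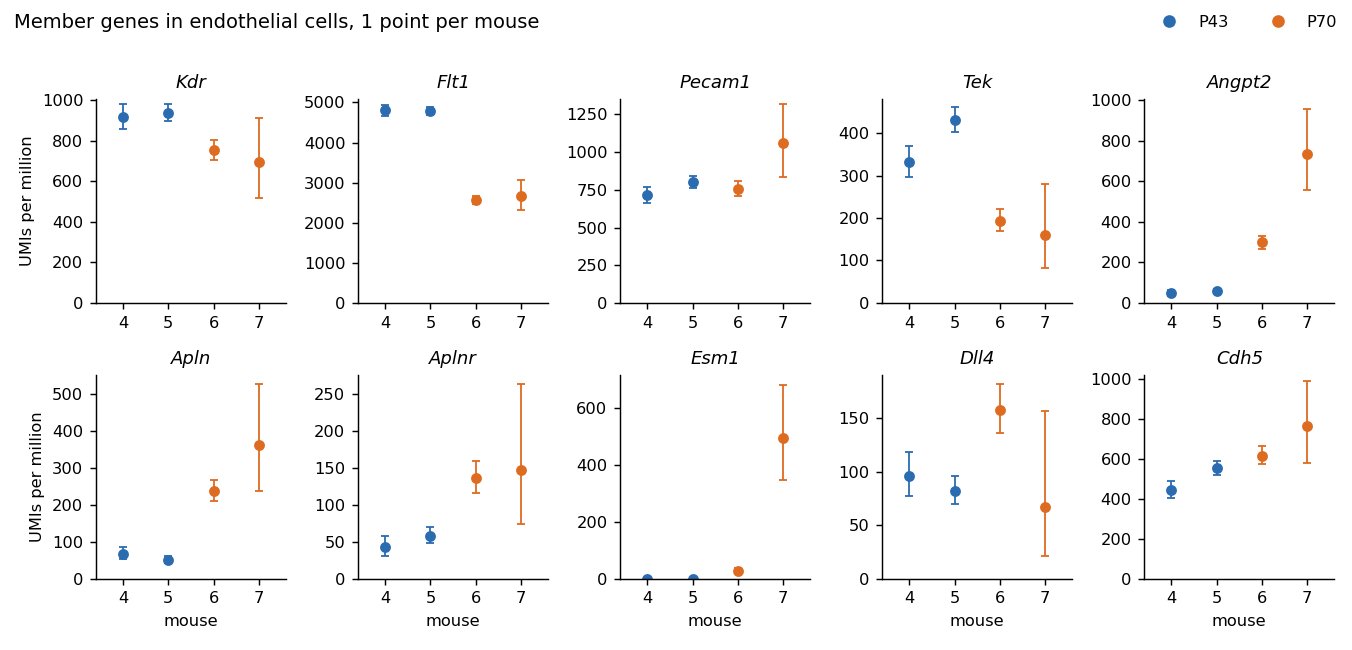
Level of each of the 10 genes in EC, in CPM of EC (vertical axis, from 0), for mice 4 and 5 at P43 and mice 6 and 7 at P70 (horizontal axis); bars are exact 95% Poisson intervals, or the limit that 3 UMIs allow where a gene was at 0, and cover counting error only. Angpt2, Apln, Aplnr and Esm1 stand higher in both P70 mice than in both P43 mice and Flt1 and Tek lower, with the widest bars in mouse 7, which had 36 EC.

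In EC of mice 4 and 5, Angpt2, the TEK ligand that EC store and release, stood at 48.1 and 57.7 CPM, whereas mice 6 and 7 had 298 and 736 CPM. Both P70 mice were above both P43 mice, and the log2 change was 3.03 ± 0.31 (SE; edgeR quasi-likelihood test, adjusted p = 4.4e-05). Apln, the apelin precursor, stood at 68.0 and 51.0 CPM at P43 and at 238 and 361 CPM at P70. Its P70 mice were again both higher, with a log2 change of 2.28 ± 0.24 (SE; edgeR, adjusted p = 5.5e-05). Aplnr, the receptor for apelin, rose from 42.9 and 58.2 CPM to 136 and 147 CPM. Its log2 change was 1.52 ± 0.25 (SE; edgeR, adjusted p = 0.0014), and the mice of the ages did not overlap. Ligand and receptor of the apelin pair were thus both higher in EC at P70.

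Esm1, which encodes the proteoglycan endocan, had no UMI in the 418 and 498 EC of mice 4 and 5 and 32 and 37 UMIs in mice 6 and 7. These are 27.3 and 495 CPM, against limits of 3.14 and 1.53 CPM that 3 UMIs allow in mice 4 and 5. Against the higher of these limits, taken per library, the measured level of Esm1 was 8.69-fold higher in mouse 6 and 158-fold higher in mouse 7. Counting error at P70 is not in these folds. The adjusted p of edgeR was 0.0065, and the P70 mice lay far apart. Because Esm1 entered the test through the P70 mice alone, this p is no independent support for a rise. The UMIs of mouse 7 came from 3 cells, 1 of which held 20.

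A single cell weighed heavily for Angpt2, Apln and Esm1 in mouse 7. Of its 55 Angpt2 UMIs 44 came from 1 cell, and of its 27 Apln UMIs 15 did. It was the same cell for both genes, and also the one richest in Esm1 and Pecam1. This cell was far deeper than the median EC of mouse 7, which held 1103 UMIs. With the cell richest in a gene taken out of each mouse, Angpt2 stood at 178 CPM and Apln at 194 CPM in mouse 7, still above 51.7 and 48.9 CPM, the higher values of the P43 mice. In mouse 6 the same values were 267 CPM for Angpt2 and 219 CPM for Apln, from 69 and 63 cells with a UMI. A further test kept all cells and left out only each gene's UMIs in its richest cell of each mouse. It called the same number of members, 6 of 10, with a log2 change of 2.41 for Angpt2 (edgeR, adjusted p = 7.2e-05).

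Flt1, the VEGF receptor with the decoy form, fell in EC from 4808 and 4788 CPM in mice 4 and 5 to 2571 and 2664 CPM in mice 6 and 7. The 2 mice of each age lay close together, and the log2 change was -0.82 ± 0.21 (SE; edgeR, adjusted p = 0.024). The call was lost without integration of the mice (adjusted p = 0.055) and without the cells that held a reporter or Ptprc UMI (adjusted p = 0.074), with log2 changes of -0.78 and -0.75. Tek fell from 332 and 431 CPM to 193 and 161 CPM, by 0.93 ± 0.22 (SE) on the log2 scale (edgeR, adjusted p = 0.016), and DESeq2 did not call it (adjusted p = 0.19). The summed level of the 14 EC markers moved with these falls, at 26983 and 27493 CPM at P43 and 17152 and 15878 CPM at P70, and Cldn5, one of them, at 6447, 6325, 4769 and 3494 CPM. Per 100 Cldn5 UMIs, EC held 74.6, 75.7, 53.9 and 76.2 Flt1 UMIs, with overlapping ages, and 5.15, 6.81, 4.06 and 4.60 Tek UMIs, lower in both P70 mice. The part of the EC marker level in the falls was not tested. Kdr, the main signalling receptor for VEGF, stood at 918 and 938 CPM at P43 and at 754 and 696 CPM at P70. Its P70 mice lay below its P43 mice, yet its log2 change of -0.26 ± 0.20 (SE) did not pass (edgeR, adjusted p = 0.51).

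The levels of these genes were also read within each of the 2 clusters that EC formed without integration, a split made after the values were seen, with a cluster that Angpt2 and Apln themselves help define. In the first cluster Flt1 stood at 4960, 4931, 4910 and 4296 CPM in mice 4, 5, 6 and 7, and in the second at 1678, 2764, 2278 and 1783 CPM. Flt1 was thus lower in the second cluster in every mouse, the ages overlapped there, and in the first cluster mouse 6 lay beside the P43 mice and mouse 7 was lowest. Tek overlapped between the ages in both clusters, at 348, 453, 383 and 273 CPM in the first and 0, 116, 170 and 97.7 CPM in the second. Angpt2 stood at 30.7, 22.4, 105 and 34.1 CPM in the first cluster, from 1 UMI in mouse 7, and at 425, 558, 325 and 1319 CPM in the second, where the ages overlapped. Apln stood in the second cluster at 1465 and 751 CPM at P43 and at 269 and 660 CPM at P70, so there the P70 mice were the lower ones. Aplnr stood there at 118 and 108 CPM at P43, from 5 and 14 UMIs, and at 155 and 244 CPM at P70, whereas in the first cluster it stood at 39.5 and 54.6 CPM at P43 and had 0 and 1 UMIs at P70. Esm1 stood in the second cluster at 30.9 and 904 CPM at P70 and had no UMI at P43, where the limits of 3 UMIs were 70.9 and 23.2 CPM, so that the level of mouse 6 could not be told from that of mouse 4 at this depth. The P43 mice had 24 and 21 cells and mouse 7 had 8 cells in that cluster. A change within EC of 1 kind and a change in the mix of the 2 clusters cannot be told apart from the sums over all EC.

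The adhesion genes were not called. Pecam1 stood at 713, 803, 755 and 1058 CPM in EC of mice 4, 5, 6 and 7, with overlapping ages (log2 change 0.26 ± 0.20, SE; edgeR, adjusted p = 0.52). Of the 79 Pecam1 UMIs of mouse 7, 32 came from 1 cell, the one richest in Angpt2. Cdh5, which encodes VE-cadherin, stood at 445 and 554 CPM at P43 and at 615 and 763 CPM at P70, and its log2 change of 0.49 ± 0.20 (SE) did not pass (edgeR, adjusted p = 0.17). Dll4, the Notch ligand of tip cells, stood at 96.3 and 82.2 CPM at P43, 158 CPM in mouse 6 and 66.9 CPM in mouse 7, where 5 UMIs were counted. Its log2 change was 0.79 ± 0.27 (SE; edgeR, adjusted p = 0.097), and without mouse 6 it turned to -0.45. Dll4 was called without mouse 7 (log2 change 0.97, adjusted p = 0.0056) and without the cells that held a reporter or Ptprc UMI (0.91, adjusted p = 0.038).

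The number of calls depended on which mice entered the test. Without mouse 4, 0 of the 9424 genes tested in EC were called by edgeR's quasi-likelihood test, 880 had an unadjusted p under 0.05, and none of the 10 was called, although log2 changes such as 3.02 for Angpt2 and 2.48 for Apln stayed. Over the 4 fits without 1 mouse, log2 changes ranged from 2.60 to 3.73 for Angpt2, 2.10 to 2.59 for Apln and 1.32 to 1.78 for Aplnr. They ranged from -0.90 to -0.77 for Flt1 and from -1.30 to -0.75 for Tek. The share of all genes called also differed between these fits, so counts of members called do not compare directly. With 36 cells drawn from each mouse, 2507 genes could be tested, against 8783 with all EC, and 2 of the 10 were called. This count does not compare directly with that of all EC either. Hba-a1, a hemoglobin gene of red blood cells, stood at 428 and 468 CPM in EC at P43 and at 5.11 and 0 CPM at P70. Without the EC that held a hemoglobin UMI, which left 413, 496, 290 and 36 cells, the number of members called was again 6. Marker lists of 4 other cell types were higher in EC of both P70 mice than of both P43 mice. The summed level in mice 4, 5, 6 and 7 was 45.0, 26.0, 233 and 107 CPM for Myeloid markers (10 of 12 at 0 in mouse 7) and 25.1, 32.7, 147 and 295 CPM for migratory DC markers (4 of 5 at 0 in mouse 7), a list that holds Fscn1, also counted with tip cells. It was 997, 1265, 1639 and 1861 CPM for plasmacytoid DC markers (3 of 6 at 0 in mouse 7) and 89.0, 77.6, 256 and 268 CPM for astrocyte markers (6 of 7 at 0 in mouse 7). Other lists were lower in EC of both P70 mice than of both P43 mice. They were those of conventional DC (68.0, 74.0, 20.5 and 40.2 CPM), mature oligodendrocytes (1498, 1011, 559 and 910 CPM) and oligodendrocyte precursors (23.0, 4.59, 2.56 and 0 CPM). The part of these lists in the changes was not tested.

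At 2000 UMIs per cell, to which each cell was thinned, 13 of 199 EC of mouse 4 (6.53%) and 23 of 397 of mouse 5 (5.79%) held an Angpt2 UMI, against 33 of 147 of mouse 6 (22.4%) and 3 of 10 of mouse 7 (30%). The exact 95% binomial intervals were 16% to 30.1% in mouse 6 and 6.67% to 65.2% in mouse 7. Apln was found in 1.01%, 2.52%, 15.6% and 40.0% of EC in mice 4, 5, 6 and 7, and Aplnr in 8.54%, 7.05%, 19.7% and 40.0%. Tek was found in 47.7%, 52.9%, 29.9% and 10.0%, and Flt1 in 100.0%, 99.7%, 90.5% and 90.0%. The shares moved the same way as the levels for each of these genes. An exact two-sided permutation test over 2 against 2 mice cannot give a p below 0.333, and each of these 5 shares gave that value. Thinning left out 219, 101, 145 and 26 EC. With no thinning, and medians of 1828.5, 3644, 2021.5 and 1103 UMIs per EC, Angpt2 was found in 6.94%, 7.83%, 23.6% and 11.1%, and the ages overlapped for Flt1 and Aplnr. As a measure of free RNA, 0.00%, 0.00%, 0.131% and 0.00% of Myeloid cells held an Angpt2 UMI at 2000 UMIs. Of the 53, 65, 804 and 145 Myeloid cells of mice 4, 5, 6 and 7, thinning left out 18, 3, 41 and 56. The zeros thus rest on few cells and cannot show that free RNA was absent.

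EC with UMIs of at least 2 of the 4 genes Angpt2, Apln, Esm1 and Dll4 made up 2.01% and 2.52% of the EC in mice 4 and 5 and 17.0% and 30% in mice 6 and 7, at 2000 UMIs per cell. The mice of the ages did not overlap (exact permutation test, p = 0.333, the smallest possible). In mouse 7 the share came from 3 of 10 EC. With no thinning the shares were 4.55%, 4.62%, 19.9% and 8.33% in mice 4, 5, 6 and 7, the last from 3 of 36 EC. EC with at least 1 of the 4 genes then made up 22.7%, 28.1%, 46.9% and 19.4%, and the ages overlapped. Angpt2 and Apln were often in the same cell. Of the 36 P70 EC with Angpt2, 19 (52.8%) also held Apln, against 6.61% of the other P70 EC. At P43, 6 of 36 did (16.7%), against 1.07% of the others. All 6 P70 EC with Esm1 also held Angpt2, 4 in mouse 6 and 2 in mouse 7. Apln and its receptor did not share cells in this way: Aplnr was in 18.5% of the P70 EC with Apln and in 21.5% of those without. With all UMIs, these shares were 32.8% and 16.9%. These counts are descriptions of cells from 2 mice per age and carry no test.

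**Figure D2:**
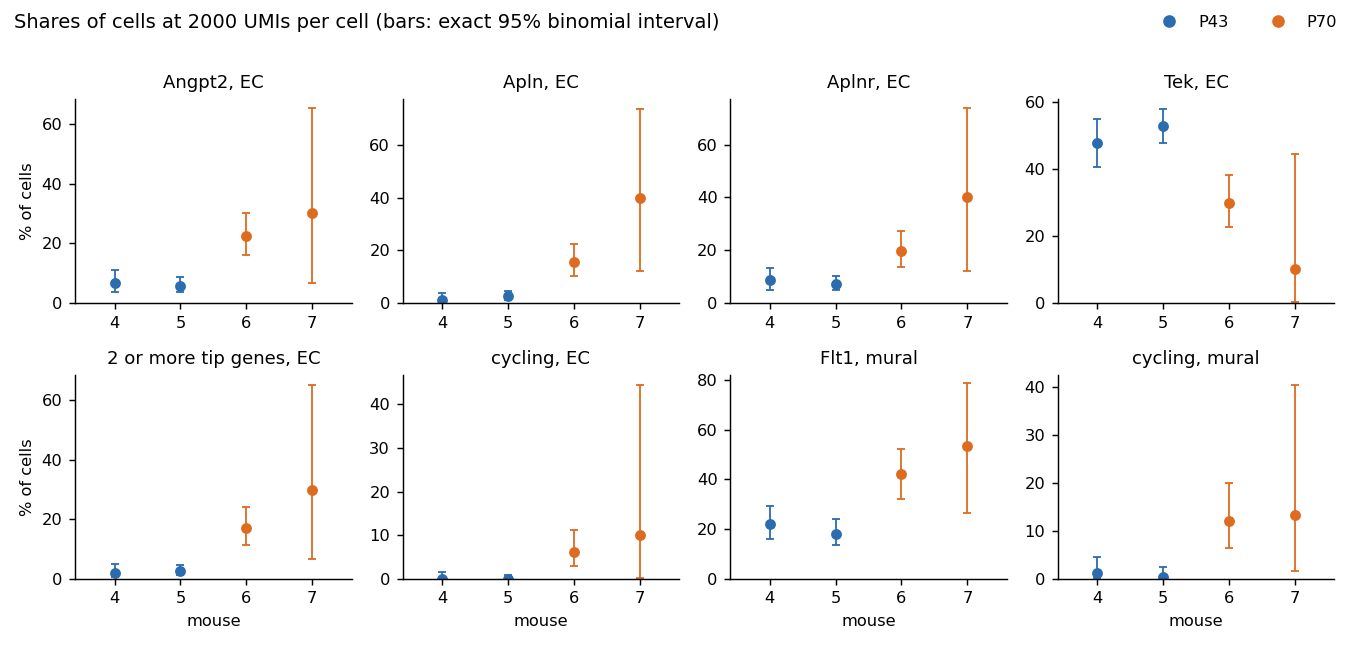
Share of cells, in % (vertical axis, from 0), in mice 4 and 5 at P43 and mice 6 and 7 at P70 (horizontal axis) after thinning to 2000 UMIs per cell, for Angpt2, Apln, Aplnr and Tek in EC, for EC with 2 or more of Angpt2, Apln, Esm1 and Dll4, for Flt1 in mural cells, and for cycling EC and mural cells; bars are exact 95% binomial intervals. Every panel is higher in both P70 mice, except Tek, which is lower, and the bars of mouse 7 are the widest (10 EC and 15 mural cells).

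Cycling cells appeared alongside. Cycling cells were those with UMIs of 2 or more among 8 cell cycle genes at 2000 UMIs. No EC of 199 and 397 in mice 4 and 5 was cycling, whereas 9 of 147 (6.12%) in mouse 6 and 1 of 10 in mouse 7 were. In mural cells the shares were 1.27% and 0.444% at P43 and 12% and 13.3% at P70. With all UMIs, 3 of 418 (0.718%) and 4 of 498 (0.803%) EC at P43 and 20 of 292 (6.85%) and 1 of 36 (2.78%) at P70 were cycling. At 1000 UMIs 1 EC of each P43 mouse was. With at least 3 genes, or at 1000 UMIs per cell, 0 EC of mouse 7 were cycling, and the ages overlapped.

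Among 64 other genes of the pathways, 51 could be tested in EC, and 16 were called higher and 8 lower at P70. Of all 8783 genes tested in EC, 6.28% were called higher and 3.55% lower, the shares to set beside each EC list below. Of 17 tested genes listed with tip cells, 12 rose and none fell, with a median log2 change of 1.12. Igfbp3, a secreted IGF binding protein, rose from 29.3 and 18.9 CPM to 428 and 228 CPM (edgeR, log2 change 4.13). Igfbp3 was among the leading genes of the second EC cluster formed without integration, and the part of that cluster in its rise was not tested. Cxcr4, the chemokine receptor of migrating tip cells, stood at 3.14 and 1.53 CPM and at 30.7 and 66.9 CPM. Its P43 values were no higher than the limits of 3 UMIs in mice 4 and 5, and in mouse 7 it rested on few UMIs. Like Esm1, Cxcr4 passed the filter on low counts through the P70 mice alone, so a call could only be a rise. Adm (adrenomedullin), Fscn1 (fascin), Chst1, Mcam, Plaur and Lxn rose too, as did the basement membrane genes Lama4, Nid2, Col4a1 and Col4a2. Col4a1 was measured at 793 and 772 CPM at P43 and at 1229 and 2370 CPM at P70. The list was drawn up with earlier results of these data known, so its count is not independent evidence.

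Of 9 tested stalk and quiescence genes, 5 fell and 1 rose, with a median log2 change of -0.88. Among all genes tested in EC, 3.55% fell and 6.28% rose. The ones that fell were Klf2, a transcription factor induced by flow, the inhibitors of BMP signalling Smad6 and Smad7, and the BMP targets Id1 and Id3. Id1 went from 1714 and 1760 CPM to 394 and 321 CPM (log2 change -2.13). The one that rose was Vwf, the von Willebrand factor, from 120 and 66.3 CPM to 495 and 442 CPM. Vwf too was among the leading genes of the second EC cluster formed without integration, whose part in the rise was not tested. Of 9 tested Notch genes, Nrarp, a Notch target, rose (log2 change 1.32), and the ligand Jag2 and the modifier Lfng fell. Notch1 (287, 257, 203 and 134 CPM; adjusted p = 0.31), Notch4 (adjusted p = 0.88), Jag1 (adjusted p = 0.66) and Hey1 (102, 92.9, 51.1 and 66.9 CPM; adjusted p = 0.099) were not called by edgeR. Of 8 tested hypoxia genes, Ndrg1 fell (log2 change -1.32) and the other 7 were not called.

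Of 3 tested VEGF ligands Pgf was called, of 3 further VEGF receptors and co-receptors Nrp2 was called, of 2 tested Tie and angiopoietin partners none was, and the second apelin receptor ligand, Apela, had too few UMIs to be tested. Nrp1, the VEGF co-receptor, stood at 443, 377, 396 and 495 CPM in mice 4, 5, 6 and 7, and its ages overlapped. Nrp2 rose, from 71.2 and 78.6 CPM to 142 and 120 CPM (log2 change 0.98). Flt4, the receptor for VEGF-C, stood at 60.7 and 76.0 CPM and at 95.5 and 107 CPM, and Tie1, the TEK partner, at 252 and 264 CPM and at 319 and 308 CPM, and neither was called by edgeR (adjusted p = 0.17 and 0.27). Pdgfb, with which EC draw pericytes, stood at 376, 483, 390 and 442 CPM with overlapping ages. Pgf (placental growth factor, a FLT1 ligand) had no UMI in EC at P43 and 25 UMIs in mouse 6, or 21.3 CPM. This measured level was 6.79-fold the limit of 3 UMIs in mouse 4, with counting error at P70 left aside. In mouse 7 it had 2 UMIs, below that library's own limit of 40.2 CPM. Like Esm1, Pgf passed the filter on low counts through the P70 mice alone. Plvap, of fenestrated vessels, had no UMI in EC at P43 and 8.52 and 93.7 CPM at P70. These measured levels were 2.71-fold and 29.8-fold the limit of 3 UMIs in mouse 4, and Plvap was not among the genes tested.

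In mural cells, Flt1 and Angpt2 rose, in a class whose ages lay mostly in different clusters without integration. Of the 10 genes, 3 passed the filter on low counts there, Kdr, Flt1 and Angpt2, and 2 of the 3 were called, both as higher. A filter that keeps a gene through the age at which it is high favours genes that differ, and among all 8526 genes tested in mural cells 19% were called, 10.8% as higher and 8.21% as lower. Flt1 stood at 226 and 119 CPM at P43 and at 365 and 411 CPM at P70. Its log2 change was 1.36 ± 0.26 (SE; edgeR quasi-likelihood test, adjusted p = 0.0021), and both P70 mice were above both P43 mice. Cldn5, an EC gene, stood at 89.9, 4.17, 25.6 and 0 CPM in the same cells, and its part in the result was not tested. Angpt2 stood at 18.9 and 19.8 CPM and at 65.0 and 97.3 CPM, with a log2 change of 2.04 ± 0.33 (SE; edgeR, adjusted p = 5.5e-04). In mouse 7 it rested on 9 UMIs. Kdr stood at 26.8, 9.37, 15.8 and 10.8 CPM and did not pass (adjusted p = 0.95).

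Within the mural cluster formed without integration, Flt1 stood at 218, 113, 420 and 157 CPM, with 2 UMIs in mouse 7 and overlapping ages. Within the fibroblast cluster, mouse 4 had 537 CPM, mouse 5 had 363 CPM, mouse 6 had 363 CPM and mouse 7 had 451 CPM. The P70 mice were thus not above both P43 mice there either. Each P43 value came from 8 UMIs, in 3 cells of mouse 4 and 2 cells of mouse 5. So few cells cannot show whether Flt1 differed with age within that cluster. Flt1 was found in 22.2% and 18.2% of mural cells at P43 and in 42.0% and 53.3% at P70 at 2000 UMIs per cell (exact permutation test, p = 0.333, the smallest possible). The most Flt1 UMIs in 1 mural cell were 28, 6, 22 and 7 in mice 4, 5, 6 and 7. Mural cells of the P70 mice also carried Col1a1, a fibroblast collagen, at 634 and 141 CPM, against 0 in both P43 mice, and the summed level of 8 fibroblast markers was 874 and 829 CPM at P43 and 3113 and 1665 CPM at P70. Without the cells that held a Col1a1, Col3a1 or Dcn UMI, which left 57 and 12 cells in mice 6 and 7, Flt1 was still called (log2 change 1.62; edgeR, adjusted p = 9.5e-04) and Angpt2 was not among the 4613 genes tested. Without integration of the mice, the mural cluster kept 27 and 13 P70 cells, Flt1 was not called (log2 change 1.04, edgeR, adjusted p = 0.23) and Angpt2 was not among the genes tested. Without mouse 6 and without mouse 7, log2 changes were 1.45 and 1.34 for Flt1 and 2.47 and 1.95 for Angpt2. Without mouse 5, the log2 change of Flt1 was 0.91. Neither gene kept its call without mouse 6 or mouse 7, nor did Flt1 without mouse 5. Each of these fits leaves 1 mouse at an age. The share of all genes called differed between the fits, so a lost call does not bear on these genes alone.

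The direction of Flt1 differed between the 2 vessel cell classes of the same tumors. The change in EC minus that in mural cells was -2.15 ± 0.30 (SE) on the log2 scale (edgeR's quasi-likelihood test of the interaction with the mouse as a block, adjusted p = 1.4e-10). Of 10243 genes, 9.6% were called in this test, and Flt1 was the 1 member called. Both classes split without integration, mostly by age in mural cells and mainly in mouse 6 in EC, and the part of that in the difference was not tested. It was called in each of the 4 fits that left out a mouse and without the block (adjusted p = 0.0013). For Angpt2 the difference between the classes was 0.81 ± 0.41 (SE) and did not pass (adjusted p = 0.25). Aplnr and Esm1 had 0 or few UMIs in mural cells and gave no usable estimate.

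**Figure D3:**
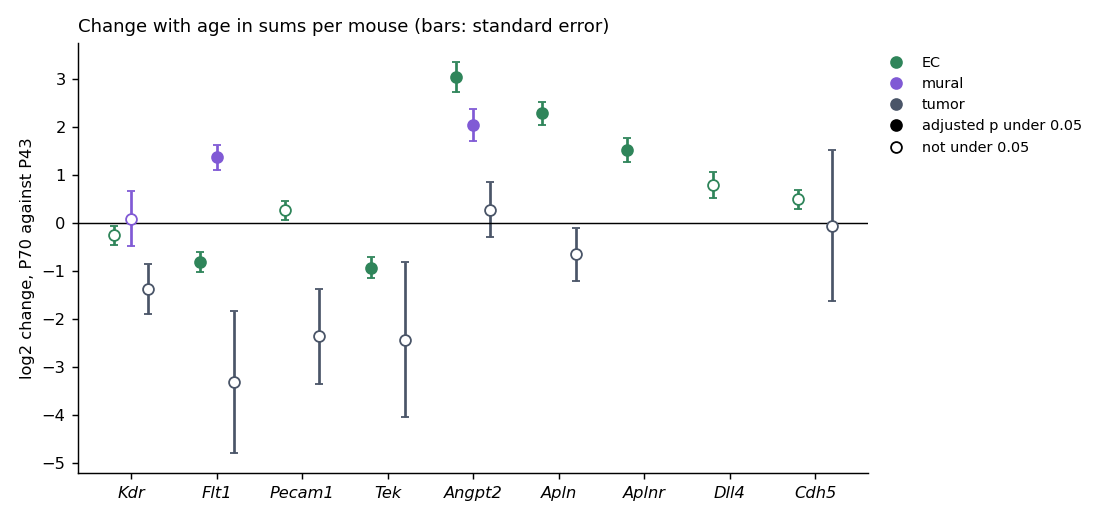
Log2 change from P43 to P70 (vertical axis) of 9 of the 10 genes (horizontal axis) in EC, mural and tumor cells, with bars of 1 SE; filled points have an adjusted p under 0.05, and genes without a point in a class did not pass its filter on low counts. Flt1 lies below 0 in EC and above 0 in mural cells, and Angpt2 is filled and above 0 in both; Esm1 is left out because it was at 0 at P43.

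Pgf and the co-receptors rose in mural cells too. Pgf went there from 31.6 and 44.8 CPM to 170 and 162 CPM (log2 change 2.30; edgeR, adjusted p = 2.1e-05). Nrp1 went from 167 and 131 CPM to 253 and 216 CPM (log2 change 0.93; edgeR, adjusted p = 0.0065), and Nrp2 from 20.5 and 16.7 CPM to 56.2 and 54.0 CPM. Angpt1, the TEK agonist of pericytes, stood at 28.4, 26.0, 38.4 and 21.6 CPM in mural cells with overlapping ages (adjusted p = 0.28). Of 40 other pathway genes tested in mural cells, 14 were called higher and 6 lower, where 10.8% and 8.21% of all 8526 genes tested were. By list, 7 of 12 tip cell genes rose and 1, Adm, fell, 3 of 7 stalk and quiescence genes rose and 2 fell, 1 of 7 hypoxia genes (Hif1a) rose, and 3 of 8 Notch genes fell, namely Notch1 (514, 598, 186 and 141 CPM), Hes1 and Hey2. Vegfa, the KDR and FLT1 ligand, stood at 9.75 and 7.32 CPM in tumor cells at P43 and at 21.1 and 17.5 CPM at P70, which did not pass (edgeR, adjusted p = 0.51). In Myeloid cells, a class without an age test here, Vegfa stood at 4.79 and 15.8 CPM at P43 and at 167 and 77.8 CPM at P70. In EC it was measured at 1.05, 0.51, 5.11 and 13.4 CPM.

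**Figure D4:**
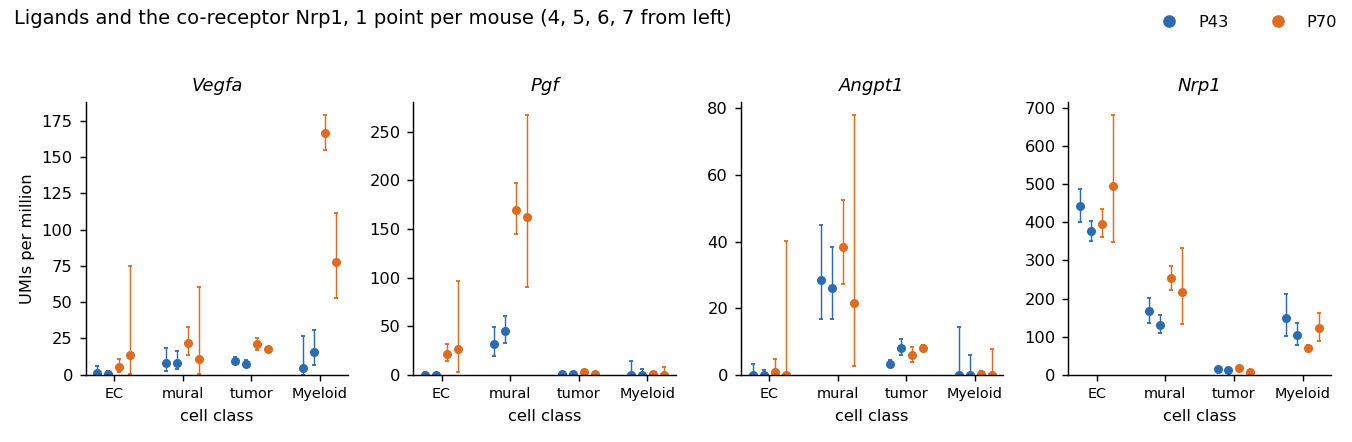
Level of the ligands Vegfa, Pgf and Angpt1 and of the co-receptor Nrp1 in CPM (vertical axis, from 0) in EC, mural, tumor and Myeloid cells (horizontal axis), with 1 point per mouse and exact 95% Poisson bars, or the limit that 3 UMIs allow where a gene was at 0. Vegfa stands highest in Myeloid cells of mice 6 and 7 and Pgf in mural cells of mice 6 and 7, whereas the points of Angpt1 in mural cells overlap.

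In tumor cells the 10 genes were low. This class includes a reporter cluster named from astrocyte markers (AC-like), whose cells in mouse 4 held Cldn5 at 897 CPM and FLUC at 71.2 CPM. Whether all cells of that cluster are tumor cells was not tested. Of 7 genes that could be tested, and of 51 pathway genes, 0 were called by edgeR's quasi-likelihood test, where 0% of 12266 genes were called and 969 had an unadjusted p under 0.05. DESeq2 called 223 of these genes and none of the members. Flt1 stood at 57.3, 9.51, 7.61 and 0.47 CPM in tumor cells of mice 4, 5, 6 and 7, and Cldn5 at 61.4, 8.41, 11.3 and 0.55 CPM. Per 100 Cldn5 UMIs, tumor cells held 93.3, 113, 67.2 and 85.7 Flt1 UMIs, and EC of the same mice 74.6, 75.7, 53.9 and 76.2. Flt1 and Cldn5 thus stood at like levels in tumor cells of each mouse, and what RNA of vessel cells adds to it was not tested. Kdr stood at 11.7, 8.41, 5.47 and 2.71 CPM and Angpt2 at 2.66, 1.83, 2.73 and 2.89 CPM, both without a call. Angpt2 and Apln did not keep to the EC ratio: per 100 Cldn5 UMIs, tumor cells of mouse 7 held 524 Angpt2 and 814 Apln UMIs, and its EC 21.1 and 10.3. These came from 110 Angpt2 UMIs and 171 Apln UMIs in 2949 cells.

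The change with age in EC was compared with that in tumor cells by the same interaction test, which called 1.28% of 12244 genes. Angpt2 (2.99 ± 0.52, SE; edgeR, adjusted p = 0.0031), Apln (2.86 ± 0.51, SE; adjusted p = 0.0039) and Pecam1 (2.80 ± 0.64, SE; adjusted p = 0.027) were called, each with the more positive log2 change in EC. Pecam1 was not called in EC alone. In tumor cells it stood at 9.55, 3.29, 2.34 and 0.53 CPM in mice 4, 5, 6 and 7, where Cldn5 stood at 61.4, 8.41, 11.3 and 0.55 CPM. The part of vessel cell RNA in this was not tested. Flt1 was not (2.70 ± 0.83, SE; adjusted p = 0.13). Without the mouse block none of the 3 was called (adjusted p = 0.20, 0.20 and 0.40), nor was any without mouse 7. On simulated counts this comparison recovered 19.5% of 200 genes changed 4-fold, and 20 of its 59 calls were false, so the 3 calls are given as values with that limit.

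Tek stood at no more than 4.73 CPM in mural and tumor cells of any mouse and had no UMI in Myeloid cells, migratory dendritic cells (DC), plasmacytoid DC or T and NK cells. Kdr was also found in DC: migratory DC held 102, 103, 298 and 60.4 CPM in mice 4, 5, 6 and 7, from 6, 7, 231 and 3 UMIs. In conventional DC of mice 4 and 5 Kdr had no UMI, with limits of 18.5 and 4.97 CPM, and in those of mouse 7 it had 1. In Myeloid cells it stood at 81.5, 3.94, 51.0 and 0 CPM, and in B lineage cells at 83.2, 0, 131 and 0 CPM. In conventional DC of mouse 6 it stood at 112 CPM, and 39 of 267 cells (14.6%) held a Kdr UMI at 2000 UMIs, against 1.87% with Flt1. Cldn5 stood at 2.11 CPM in those cells, so that Kdr exceeded it there, whereas EC of mouse 6 held 15.8 Kdr UMIs per 100 of Cldn5. Plasmacytoid DC of mouse 6 held Cdh5 at 210 CPM (63 UMIs), Kdr at 207 CPM (62 UMIs) and Pecam1 at 114 CPM (34 UMIs) with no Cldn5 UMI. T and NK cells held Pecam1 at 64.9, 61.0, 115 and 118 CPM. Apln was found in mature oligodendrocytes (MOL) at 68.0 and 65.1 CPM in the P43 mice, 27 UMIs each, beside 68.0 and 51.0 CPM in EC of those mice. Mouse 7 had 1 Apln UMI in 43 MOL (3.76 CPM), and mouse 6 had 1 such cell and gives no value. The P43 values came from 39 and 35 cells. MOL of mouse 7 held FLUC at 455 CPM and humanNMYC at 218 CPM, against 7.56 and 19.3 CPM of FLUC and 0 and 7.23 CPM of humanNMYC in mice 4 and 5. The clusters that define these classes were made from the same cells, so these levels are descriptions without a test.

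**Figure D5:**
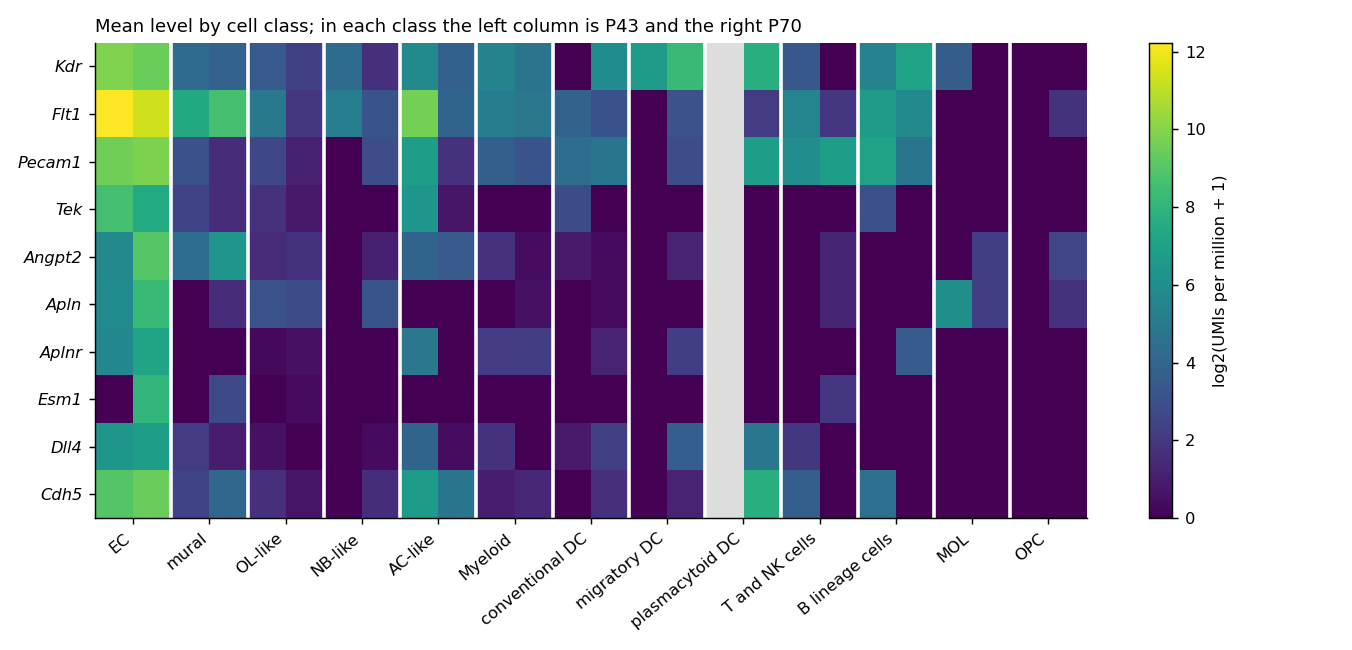
Mean level of the 10 genes (rows) by cell class (columns, P43 left and P70 right in each), as log2(CPM + 1) over the mice of an age with at least 20 cells; grey marks a class with no such mouse at that age. EC carry all 10 genes at P70 (Esm1 is at 0 at P43), mural cells mainly Flt1 and Angpt2, DC also Kdr, and MOL Apln at P43.

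Over 41 sums of a class in a mouse, which share libraries and depth, the genes whose pattern was most like that of a member differed between members. For Flt1 these were Adgrf5 (Pearson r = 0.96 of log2 CPM with 10 CPM added), Esam and Arhgef5, and for Tek they were Fgd5, Erg and C130074G19Rik, with r from 0.97 to 0.98. Angpt2 was closest to Ecscr, Mapk12 and Dysf, Dll4 to Tbx1, Adamtsl2 and Robo4, and Aplnr to Rassf9, Tbx1 and Ushbp1. Kdr had lower values, 0.80 for Rasip1, Sema7a and Unc45b, as did Apln, 0.85 for Exoc3l, Acer2 and Depp1. Pecam1 was closest to Pglyrp1, Cdh5 to Paqr5 and Esm1 to Clca2. The values describe these sums and carry no p.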

How the data were processed

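Single-cell libraries of tumors from 4 mice were made by the authors with the 10x Genomics 3′ chemistry. The values the authors deposited are raw counts of UMIs by gene and barcode, made with Cell Ranger 6.0.2 on mm10 with the reporter sequences added. UMIs are molecules counted once, so intervals and limits cover counting error only. The filter on barcodes asked for 200 genes or more, a mitochondrial share under 25% and no more than 40000 UMIs, which left 10975 cells, with genes in at least 3 cells. The upper limit was the only treatment of doublets. Seurat 5.3.0 in R 4.3.3 integrated the mice by anchors on 2000 variable genes and clustered on 30 components at resolution 0.5 with seed 1. Clusters with at least 500 CPM of reporter were called tumor, and others were named from marker lists. A reporter cluster with neutrophil markers was left unassigned.

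Raw counts were summed per mouse and class and tested with edgeR 4.0.16 (quasi-likelihood test, filter on low counts, TMM factors, Benjamini-Hochberg adjustment over all genes tested, two-sided). Differences between classes were tested as an interaction with the mouse as a block. Shares of cells were compared after thinning to 2000 UMIs by an exact two-sided permutation test in scipy 1.17.1, whose smallest p is 0.333. DESeq2 1.42.0, RLE factors, other filters and clusterings, equal numbers of cells, and fits without 1 mouse were alternatives. Named were the 10 genes, every pathway gene past an adjusted p of 0.05, a fixed set of partners, and the 3 genes of most similar pattern. The members and lists were chosen with earlier results of these data known. On simulated counts in which 200 genes changed 4-fold, the test recovered 82.0% in EC, 85.5% in mural cells and 47.0% in tumor cells, and the interaction 43.0% for EC against mural cells.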

Additional observations from a re-analysis of the deposited data

Results flagged for a closer look

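The change with age of 4 of the 10 genes differed between cell classes of the same mice, by edgeR's quasi-likelihood test of the interaction with Benjamini-Hochberg adjustment. The test called 9.6% of 10243 genes for EC against mural cells and 1.28% of 12244 for EC against tumor cells. Against mural cells it also called the partner genes Klf2 (log2 difference -2.87), Id3 (-2.48), Pgf (5.12), Notch1 (1.10), Nrp1 and Hey1. It did not call Vegfa, Nrp2, Jag1, Col4a1, Igfbp3 and Id1 there. Flt1 fell in EC and rose in mural cells, a log2 difference of -2.15 ± 0.30 (SE; adjusted p = 1.4e-10), with lower values at P70 in EC and higher values in mural cells in 2 of 2 mice. Angpt2 differed between EC and tumor cells by 2.99 ± 0.52 (SE; adjusted p = 0.0031), Apln by 2.86 ± 0.51 (SE; adjusted p = 0.0039) and Pecam1 by 2.80 ± 0.64 (SE; adjusted p = 0.027). Pecam1 was called in neither class alone, and its levels in tumor cells were lower in both P70 mice than in both P43 mice. The comparison with tumor cells made 20 false calls among 59 on simulated counts.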

How the results depend on the processing

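The 6 called genes of EC kept their direction under every alternative that gave a value. Read within the second EC cluster formed without integration, Apln was instead lower at P70 and Angpt2 overlapped between the ages, as the report gives. In EC, 6 of the 10 genes were called, against 2 with equal cell numbers and 0 to 7 without 1 mouse, where 0 came without mouse 4, and DESeq2 called 4. In mural cells, 2 were called, against 0 without integration, 1 with equal cell numbers, 1 without cells holding Col1a1, Col3a1 or Dcn UMIs and 0 to 2 without 1 mouse. In tumor cells the count was 0 to 0 and for EC against mural cells 1 to 1 without 1 mouse. For EC against tumor cells it was 3, against 0 without the mouse as a block and 0 to 5 without 1 mouse. The numbers of all genes tested and called differed between these fits, so counts of members called do not compare directly. Direction turned for Pecam1 in EC without each gene's UMIs in its richest cell (-0.018). It turned for Dll4 in EC without mouse 6 (-0.45, range -0.45 to 0.97 without 1 mouse). It also turned for the share of EC with Dll4 (range -14.0 to 10.5 percentage points). Kdr in mural cells turned with DESeq2 (-0.13), without a filter (-0.00031) and without mouse 5 or mouse 6 (-0.66 and -0.47, range -0.66 to 0.86). The cause was not tested. DESeq2 called 239 genes in EC against 864 and 574 in mural cells against 1618, and without integration 98 were called in mural cells. Of 278 changes of 1 gene that were recomputed, 236 kept both their direction and their side of the threshold for a call. Of the others, 31 lost the call, 5 gained it and 6 turned direction. Of 79 shares recomputed, 78 kept their direction, and shares had no call to keep. Many of these recomputed shares left out 1 mouse. Where the ages did not overlap, leaving out 1 mouse could not turn the direction, so those values do not bear on stability. The total of 359 unchanged among 414 values also holds counts of members called, graded more loosely. There, 4 members called in EC by DESeq2 passed as unchanged from 6. The levels by cluster without integration were chosen after seeing the data. Alternatives without a gene's UMIs in its top cell, or without hemoglobin or collagen cells, were also chosen then. The same holds for leaving a mouse out of an interaction or a share. No paired analysis was possible because replicate numbers followed accession order and the ages came from different mice. With 36 EC in mouse 7, genes under about 40.2 CPM could go uncounted there.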

Other observations

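Tek, the angiopoietin receptor, was found at P43 in 8 of the 36 EC with Angpt2 (22.2%) and in 53.0% of the other EC, at 2000 UMIs per cell. At P70 the shares were 25% and 29.8%. With all UMIs of each cell, the shares were 42.6% and 57.5% at P43 and 38.4% and 34.5% at P70. Dll4 was found in 10 of the 27 P70 EC with Apln (37.0%) and in 20% of those without, all 10 from mouse 6. Angpt2 and Aplnr were both higher at P70, and 3 of 36 P70 EC with Angpt2 held Aplnr (8.33%), against 24.8% of the others. With all UMIs these shares were 21.9% and 19.6%. In cells of the reporter cluster labelled AC-like by its markers, Flt1 stood at 812, 178, 21.5 and 7.42 CPM in mice 4, 5, 6 and 7, and Cldn5 at 897, 80.1, 7.82 and 12.1 CPM. In mouse 4 these cells held FLUC at 71.2 CPM and humanNMYC at 85.4 CPM, beside Rgs5 at 783 CPM. Their Col1a1 level was 655, 196, 1238 and 2.02 CPM in mice 4, 5, 6 and 7. Whether all of these cells are tumor cells was not tested.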
